A study of Mus musculus with 16 samples.

Results

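The 10 genes described here belong to the p53 response to DNA damage and to cell senescence: Trp53, Mdm2, Cdkn1a, Ccng1, Gadd45a, Phlda3, Bax, Trp53inp1, Gdf15 and Cdkn2a. They were chosen by name and not by a rule on measured values, though with earlier results of these data known. All 10 were found among the 51912 genes of the deposited count table. The libraries were made from RPE (retinal pigment epithelium, a pigmented sheet behind the photoreceptors) of male mice on C57BL/6, aged 40 weeks. Genotypes were wild type and knockout of Sucnr1, which encodes a receptor for succinate, and mice of each genotype were untreated or exposed to hydroquinone, an oxidant. This gave 4 groups of 4 libraries, 1 eye each: untreated wild type (2 mice), hydroquinone wild type (4 mice), untreated knockout (3 mice) and hydroquinone knockout (4 mice). The knockout allele and the dose, route and duration of hydroquinone are not given in the sources used here. The labels' protocol speaks of 4 animals per group, whereas the sample titles name 13 mice, of which 3 gave both eyes. The titles were followed.

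The protein p53, encoded by Trp53, is a transcription factor that is held at a low level by MDM2 and is stabilised when DNA is damaged. It then switches on genes that halt the cell cycle, aid repair or bring about cell death, and Mdm2 itself, which closes a feedback loop. p53 is controlled largely at the protein level, so the transcripts of its targets are the usual readout in RNA data. Lasting arrest is called senescence, and the RPE is a layer of cells that do not normally divide. Hydroquinone cycles to a quinone and can damage DNA, which raises the question of whether p53 targets rose together in exposed mice.

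p53 binds a response element made of 2 half-sites of 10 bases each. RefSeq start windows (GRCm38.p6, 250 bases before to 50 after a start of transcription) were found for 9 of the 10 genes, all but Trp53inp1. They were searched for 2 half-sites in a row with at most 1 base between them, allowing 3 positions off the consensus but none in the 4-base core of either half-site. The motif reads the same on both strands. An element was found in the windows of 3 genes, Cdkn1a, Bax and Trp53, and in 1.06% of all 32851 windows. The matches are printed because they show which bases of these windows resemble the p53 consensus. The capitals mark both half-sites and any base between them, on the strand of the gene.
Cdkn1a, chr17:29090908-29090967, plus strand: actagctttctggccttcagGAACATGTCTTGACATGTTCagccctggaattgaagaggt
Bax, chr7:45467059-45467119, minus strand: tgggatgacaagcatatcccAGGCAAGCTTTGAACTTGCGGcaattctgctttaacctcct
Trp53, chr11:69580264-69580323, plus strand: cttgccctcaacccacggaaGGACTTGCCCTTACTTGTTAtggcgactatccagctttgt

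The Cdkn1a element lay 51 to 32 bases before the more upstream of its 2 RefSeq starts and was 1 position off the consensus. The Bax element was 2 positions off with 1 base between the half-sites, and the Trp53 element was 3 positions off. Of the other windows, those of Gadd45a, Mdm2 and Ccng1 held a single half-site with no position off. With the genes that had an element included, 6 of the 9 genes with a window held at least 1 such half-site. Of all windows, 8.36% held at least 1. These matches are letters in a window and were not tested as binding sites.

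All 10 genes were detected, over a wide span of levels. Ccng1 had the highest level per length, 41.0 ± 6.35 CPM per kilobase of exon over the 16 libraries (SD). CPM is the count scaled to a library total of 1e6, with totals adjusted by TMM (trimmed mean of M-values) factors. Phlda3 followed with 33.8 ± 11.3 and Gadd45a with 20.8 ± 7.495 CPM per kilobase. Cdkn1a at 11.9 ± 4.49 and Mdm2 at 11.5 ± 0.495 CPM per kilobase were next. Below them lay Bax at 6.73 ± 1.86 and Trp53 at 6.11 ± 0.885 CPM per kilobase, then Trp53inp1 at 3.87 ± 0.582 and Gdf15 at 1.30 ± 0.498. Cdkn2a was lowest, at 0.398 ± 0.357 CPM per kilobase. The libraries of neighbouring genes in this order overlapped, except those of Trp53inp1 and Gdf15. The number of counts behind each value came from libraries of 21113549 to 35332444 counts. In these, 3 counts correspond to 0.085 to 0.142 CPM without TMM factors. In bulk RNA, fewer cells of a type and less RNA per cell cannot be told apart.

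The 12 RPE markers checked the tissue: each was detected in every library and 11 were at 1 CPM or more in all of them. Other tissues were present as well, and their shares differed between libraries of a group. The mean log2(CPM + 1) of 10 corneal and surface epithelium markers ranged from 7.81 to 10.3, that of 15 rod markers from 2.79 to 9.75, and that of 7 oligodendrocyte markers from 2.66 to 9.26. Of these, all 10 corneal and 14 of 15 rod markers were at 1 CPM or more in every library. Untreated wild-type library 3 and untreated knockout library 1 had the fewest genes detected, 18282 and 17904. Sucnr1 was too low to check the genotype labels, with 28 counts in all over untreated and 1 over hydroquinone wild type, and 3 and 1 over the knockout groups.

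No gene passed the test for hydroquinone among the 9 that could be tested (those with a mean of at least 1 CPM, which left out Cdkn2a). In wild type, edgeR called 0 of 9 at an adjusted p below 0.05, against 0.0065% of the 15380 genes tested, and 0 of 9 had an unadjusted p below 0.05, against 4.28% of all genes. In knockout it called 0 of 9, against 0.0455% of all genes, with 1 unadjusted p below 0.05, that of Gdf15, against 2.96%. Averaged over genotype it called 0 of 9, against 0.0845% of all genes (0.0715% higher and 0.013% lower), and 0 had an unadjusted p below 0.05, against 5.72%. DESeq2 and limma with the mouse as a block also called 0 of 9 in each of these comparisons. Among all genes DESeq2 called 20 of 15376 in wild type, 14 of 15376 in knockout and 39 of 15077 averaged over genotype. By limma these numbers were 3, 7 and 13 of 15380. The median log2 fold change of the 9 genes averaged over genotype was 0.0079, against 0.0046 for all genes, with 6 of 9 above 0, against 51.2% of all genes. In wild type 5 of 9 were above 0, against 50%, and in knockout 5 of 9, against 49.6% of all genes. In 0 of 9 did the hydroquinone libraries lie all above or all below the untreated ones, against 2.91% of all genes in wild type, 1.91% in knockout and 0.104% with genotypes joined.

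**Figure D1:**
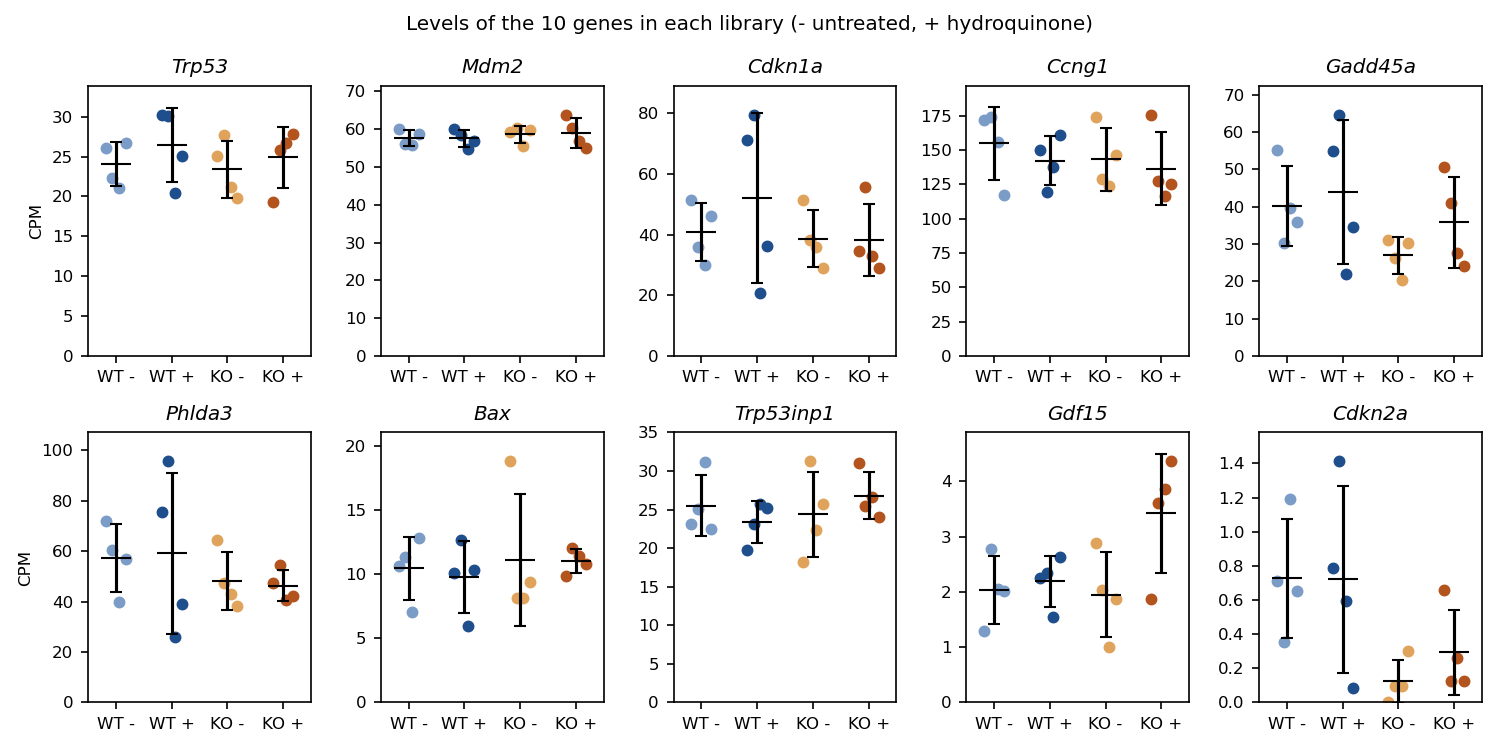
Level of each of the 10 genes in CPM (vertical axes, from 0) in the 16 libraries, by group (WT wild type, KO Sucnr1 knockout, - untreated, + hydroquinone). Points are libraries and bars are mean ± SD of 4 libraries. All groups overlap, except that for Cdkn2a untreated knockout (up to 0.299 CPM) lies below untreated wild type (from 0.353 CPM).

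Trp53 (ENSMUSG00000059552, chromosome 11, 69580359 to 69591873, plus strand), the gene of p53 itself, was at 26.1, 22.3, 21.1 and 26.7 CPM in untreated wild type and 30.2, 30.1, 20.5 and 25.0 CPM in hydroquinone wild type. In knockout it was at 25.0, 27.6, 21.2 and 19.8 CPM untreated and 19.3, 25.9, 26.7 and 27.8 CPM with hydroquinone. All 4 groups overlapped. Averaged over genotype it differed by 0.11 on the log2 scale (95% interval -0.13 to 0.35, edgeR adjusted p = 0.927), so that an increase above 1.28-fold lay outside the interval.

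Mdm2 (ENSMUSG00000020184, chromosome 10, 117688875 to 117710758, minus strand), the p53 target whose product degrades p53, hardly varied. It was at 60.0, 56.1, 55.7 and 58.7 CPM in untreated wild type and 60.1, 58.6, 54.7 and 56.9 CPM with hydroquinone. In knockout the values were 59.3, 60.2, 55.4 and 59.7 CPM untreated and 63.8, 60.3, 56.8 and 55.0 CPM with hydroquinone. The highest library was 1.17 times the lowest. The SD of log2(CPM + 1) within groups was 0.066, and only 0.0845% of tested genes had a smaller one, against a median of 0.27. The log2 fold change was -0.0025 in wild type (95% interval -0.16 to 0.15), 0.0076 in knockout (-0.15 to 0.16) and 0.0026 averaged over genotype (-0.11 to 0.11, edgeR adjusted p = 0.993). The last interval corresponds to 0.929-fold to 1.08-fold, the narrowest among the 9 genes.

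Cdkn1a (ENSMUSG00000023067, chromosome 17, 29090976 to 29100727, plus strand) encodes p21, the inhibitor of cyclin-dependent kinases through which p53 halts the cell cycle. In contrast to Mdm2 it differed widely between libraries of a group. Untreated wild-type libraries were at 51.4, 35.9, 30.1 and 46.1 CPM and hydroquinone wild-type libraries at 71.3, 79.5, 20.7 and 36.2 CPM, so that the hydroquinone group held both the highest and the lowest library of all 16. Knockout libraries were at 51.3, 38.4, 35.9 and 29.0 CPM untreated and 34.7, 55.7, 33.0 and 29.1 CPM with hydroquinone. The log2 fold change was 0.35 in wild type (95% interval -0.40 to 1.09) and -0.019 in knockout (-0.76 to 0.72), with edgeR adjusted p = 0.994 and 1.00. A rise of up to 2.13-fold in wild type lay within the interval. The opposite-strand gene AC167363.2 shares 7.68% of the exonic bases of Cdkn1a, and the strand setting of the counts is not given in the sources used here.

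Ccng1 (ENSMUSG00000020326, chromosome 11, 40748552 to 40755311, minus strand) encodes cyclin G1, a p53 target that takes part in the MDM2 feedback. Its group means were 154.9 ± 26.5 CPM in untreated and 142.1 ± 17.8 CPM in hydroquinone wild type, and 143.3 ± 22.8 and 136.3 ± 26.6 CPM in knockout (SD, n = 4 libraries each). The values of single libraries ran from 116.5 to 175.6 CPM and both of these came from the hydroquinone knockout group. Averaged over genotype its log2 fold change was -0.098 (95% interval -0.34 to 0.15, edgeR adjusted p = 0.939), with an upper end of 1.11-fold.

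Gadd45a (ENSMUSG00000036390, chromosome 6, 67035096 to 67037457, minus strand), a stress-induced gene that acts in growth arrest and repair, was at 55.2, 30.1, 39.7 and 36.0 CPM in untreated wild type and 54.8, 64.6, 22.1 and 34.5 CPM with hydroquinone. Knockout libraries were at 31.2, 26.3, 20.3 and 30.3 CPM untreated and 50.5, 41.0, 27.5 and 23.97 CPM with hydroquinone. In wild type the hydroquinone libraries spread on both sides of the untreated ones, and in knockout libraries 1 and 2 lay above all untreated ones while the others lay among them. The log2 fold change was 0.13 in wild type (95% interval -0.54 to 0.79) and 0.41 in knockout (-0.26 to 1.07), with edgeR adjusted p = 0.994 and 1.00. An opposite-strand transcript, E230016M11Rik, shares 19.1% of the exonic bases of Gadd45a.

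Phlda3 (ENSMUSG00000041801, chromosome 1, 135766119 to 135769136, plus strand), a p53 target whose product restrains the survival kinase AKT, was at 72.1, 60.5, 39.6 and 56.9 CPM in untreated wild type. With hydroquinone the wild-type libraries were at 75.5, 95.6, 26.1 and 39.2 CPM. Knockout libraries were at 64.6, 47.2, 42.9 and 38.1 CPM untreated and 47.5, 54.7, 40.8 and 42.3 CPM with hydroquinone. As for Cdkn1a, hydroquinone wild-type library 2 was the highest and library 3 the lowest of all. Hydroquinone averaged over genotype gave a log2 fold change of -0.0063 (95% interval -0.49 to 0.47, edgeR adjusted p = 0.998).

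Bax (ENSMUSG00000003873, chromosome 7, 45461697 to 45466898, minus strand), which opens the outer mitochondrial membrane in cell death, averaged 10.5 ± 2.44 and 9.79 ± 2.78 CPM in untreated and hydroquinone wild type. In knockout the means were 11.1 ± 5.16 and 11.1 ± 0.928 CPM (SD, n = 4 libraries each). The wide SD of untreated knockout came from library 1, at 18.8 CPM against 8.16 to 9.39 CPM in the other libraries of the group. For hydroquinone averaged over genotype the log2 fold change was -0.054 (95% interval -0.48 to 0.38, edgeR adjusted p = 0.971). The overlapping gene model Gm45808 on the same strand shares 12.18% of its exonic bases.

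Trp53inp1 (ENSMUSG00000028211, chromosome 4, 11156431 to 11174379, plus strand), whose product promotes p53 activity in cell death and autophagy, ran from 18.2 to 31.3 CPM over all libraries. Its means were 25.5 ± 3.96 and 23.5 ± 2.71 CPM in untreated and hydroquinone wild type and 24.4 ± 5.53 and 26.8 ± 3.02 CPM in knockout (SD, n = 4 libraries each). The log2 fold change was -0.12 in wild type and 0.14 in knockout, and averaged over genotype it was 0.0079 (95% interval -0.24 to 0.25, edgeR adjusted p = 0.992).

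Gdf15 (ENSMUSG00000038508, chromosome 8, 70629393 to 70632456, minus strand) encodes a secreted stress hormone and is a p53 target as well as a target of other stress pathways. It was the only gene of the 9 with an unadjusted p below 0.05 for hydroquinone. In knockout it was at 2.88, 2.03, 1.00 and 1.87 CPM untreated and 1.88, 3.60, 3.86 and 4.36 CPM with hydroquinone. Hydroquinone libraries 2 to 4 were above all untreated ones, while library 1 lay among them. The counts behind these values were 31 to 62 and 57 to 119 per library. The log2 fold change was 0.82 (SE 0.36, 95% interval 0.056 to 1.58) and did not pass over all genes (edgeR adjusted p = 1.00).

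In wild type Gdf15 averaged 2.03 ± 0.612 CPM untreated and 2.20 ± 0.460 CPM under hydroquinone (SD over 4 libraries), and its log2 fold change was 0.11 (95% interval -0.65 to 0.87). The effect was not shown to differ between genotypes (difference 0.71, SE 0.50, edgeR adjusted p = 1.00). Library identifiers come with or without a letter, and what the letter marks is not given in the sources used here. The knockout log2 fold change was 0.14 in the form lacking a letter and 1.52 in the form carrying one (2 libraries in each knockout group, edgeR adjusted p = 1.00 and 0.149). Over 13 mice Gdf15 had a Pearson's r of -0.734 with the rod score (adjusted permutation p = 0.057). Spearman's rho was -0.670 (adjusted permutation p = 0.153). In hydroquinone knockout the rod score was 9.60 in library 1 and 2.79 to 3.53 in the others. In untreated wild type, library 2 had both the highest rod score (8.52) and the highest Gdf15 level (2.78 CPM). The summed rod level was 265 to 22490 CPM in hydroquinone knockout and 363 to 24780 CPM in untreated knockout. With the rod score as a covariate the knockout log2 fold change of Gdf15 was 0.66 (SE 0.34, edgeR adjusted p = 1.00). The cause of the Gdf15 values was not tested.

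**Figure D2:**
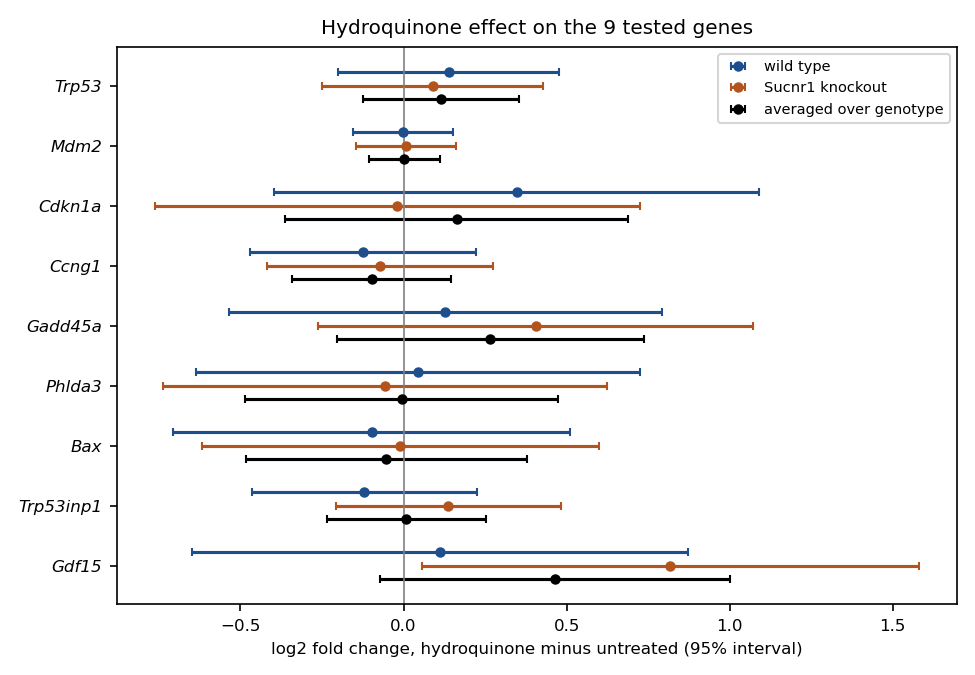
Log2 fold change of hydroquinone against untreated (horizontal axis) for the 9 tested genes, in wild type, in Sucnr1 knockout and averaged over genotype. Dots are edgeR estimates and bars 95% intervals. The bars cross 0 except that of Gdf15 in knockout (0.056 to 1.58), and Mdm2 has the shortest.

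Cdkn2a (ENSMUSG00000044303, chromosome 4, 89274471 to 89294653, minus strand) encodes the senescence proteins p16INK4a and p19ARF, which the gene counts do not separate. Its counts were 21, 9, 29 and 15 in untreated wild type and 22, 49, 15 and 2 in hydroquinone wild type. In knockout they were 0, 3, 3 and 8 untreated and 20, 3, 8 and 3 with hydroquinone. In the untreated groups every knockout library (up to 0.299 CPM) was below every wild-type library (from 0.353 CPM), whereas the hydroquinone groups overlapped. Among the tested genes, which do not include Cdkn2a, 1.05% had untreated genotypes that did not overlap. With hydroquinone the pooled level was 0.551 CPM, against 0.418 CPM in untreated libraries. The difference over mice was 0.12 in mean log2(CPM + 1) (p = 0.625 in a 2-sided exact permutation test with 8 and 5 mice).

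Between genotypes the Cdkn2a levels were as follows, and the difference did not pass after adjustment. Wild-type libraries held 162 Cdkn2a counts (0.755 CPM) and knockout libraries 48 (0.221 CPM), and 5 of 8 knockout libraries had 3 counts or fewer, against 1 of 8 in wild type. Over mice the difference in mean log2(CPM + 1), knockout minus wild type, was -0.46 (p = 0.030 in a 2-sided exact permutation test with 7 and 6 mice, and 0.061 adjusted over both tests of Cdkn2a). Within identifier forms it was -0.68 (no letter) and -0.17 (letter). Leaving out each library in turn gave p from 0.0076 to 0.066 (exact permutation tests), and differences from -0.58 to -0.35. Fitted with all other genes and no filter on low counts, Cdkn2a did not pass (-1.86 on the log2 scale with SE 0.62, adjusted p = 1.00 by edgeR).

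No gene of the 9 passed the test for loss of Sucnr1 either. For knockout against wild type, edgeR called 0 of 9 untreated, under hydroquinone and averaged over treatment, where it called 0.0% of all genes each time. None of the 9 had an unadjusted p below 0.05, against 1.32%, 4.18% and 2.96% of all genes. DESeq2 and limma with the mouse as a block also called 0 of 9. Among all genes DESeq2 called 0, 3 and 0 of 15376, and limma 0 of 15380 each time. Above 0 were 2 of 9 untreated, against 53.2% of all genes, 4 of 9 under hydroquinone, against 53.1%, and 4 of 9 averaged over treatment, against 55.7%. Groups did not overlap for 0 of 9 in these comparisons, against 1.05%, 2.33% and 0.0% of all genes. The lowest unadjusted p averaged over treatment was that of Gadd45a, which averaged 40.3 ± 10.7 CPM in untreated wild type and 27.0 ± 4.96 CPM in untreated knockout, and 44.0 ± 19.3 and 35.8 ± 12.3 CPM under hydroquinone (SD over 4 libraries). Its log2 fold change was -0.44 (95% interval -0.91 to 0.034, edgeR adjusted p = 0.987). For the interaction of hydroquinone and genotype 0 of 9 passed with edgeR, against 0.0% of all genes, and 0 had an unadjusted p below 0.05, against 1.92%, with 6 of 9 above 0, against 50%.

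The genes did not move as 1 group across mice. With the eyes of a mouse averaged, 21 of the 36 pairs of genes had a Pearson's r of log2(CPM + 1) above 0 over 13 mice, and r ran from -0.538 (Ccng1 with Gdf15) to 0.943 (Cdkn1a with Phlda3), with a median of 0.204. These r are descriptions, since all genes of a mouse share its libraries. Cdkn1a, Phlda3 and Gadd45a went together, with r of 0.943 for Cdkn1a with Phlda3, 0.794 for Gadd45a with Phlda3 and 0.791 for Cdkn1a with Gadd45a. Trp53inp1 ran against Cdkn1a (r = -0.460).

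These 3 genes followed the corneal and surface epithelium markers. The share of all tested genes that followed them as closely was not computed, so the relation is not shown to be particular to these genes. Cdkn1a had a Pearson's r of 0.929 with the marker score over 13 mice (permutation p = 1e-05, the smallest that 100000 permutations give, adjusted p = 0.0009 over 90 relations of 9 genes and 10 marker lists). Spearman's rho was 0.912 (permutation p = 4e-05, adjusted p = 0.0036). Without the 2 mice farthest from the median score r was 0.825, and it was 0.944 with group means removed. Within identifier forms it was 0.943 (no letter, 9 libraries) and 0.803 (letter, 7 libraries).

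For Phlda3 r was 0.832 (permutation p = 0.00047, adjusted 0.016) and rho 0.786 (permutation p = 0.0022, adjusted 0.052). It was 0.623 without the 2 farthest mice, 0.891 in the 9 libraries lacking a letter and 0.264 in the 7 others. For Gadd45a r was 0.778 (permutation p = 0.0019, adjusted 0.034) and rho 0.742 (permutation p = 0.0052, adjusted 0.080), and r was 0.528 without the 2 farthest mice. Its r was 0.701 without and 0.596 with a letter. For Mdm2 r with this score was 0.486 (permutation p = 0.092, adjusted 0.344) and rho 0.593 (permutation p = 0.035, adjusted 0.240), and r was 0.563 without the 2 farthest mice.

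The other relations with an adjusted permutation p below 0.05 for r were Mdm2 with the RPE score (r = -0.811, adjusted permutation p = 0.016), Gadd45a with the RPE score (-0.762, 0.042) and Ccng1 with muscle markers (0.832, 0.016). Their rho was -0.802, -0.780 and 0.736 (permutation p = 0.0014, 0.0023 and 0.0055, adjusted 0.052, 0.052 and 0.080). Without the 2 farthest mice their r was -0.779, -0.623 and 0.722. For Mdm2 it was -0.755 in libraries without and -0.881 in those with a letter, for Gadd45a -0.713 and -0.508, and for Ccng1 0.857 and 0.890.

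**Figure D3:**
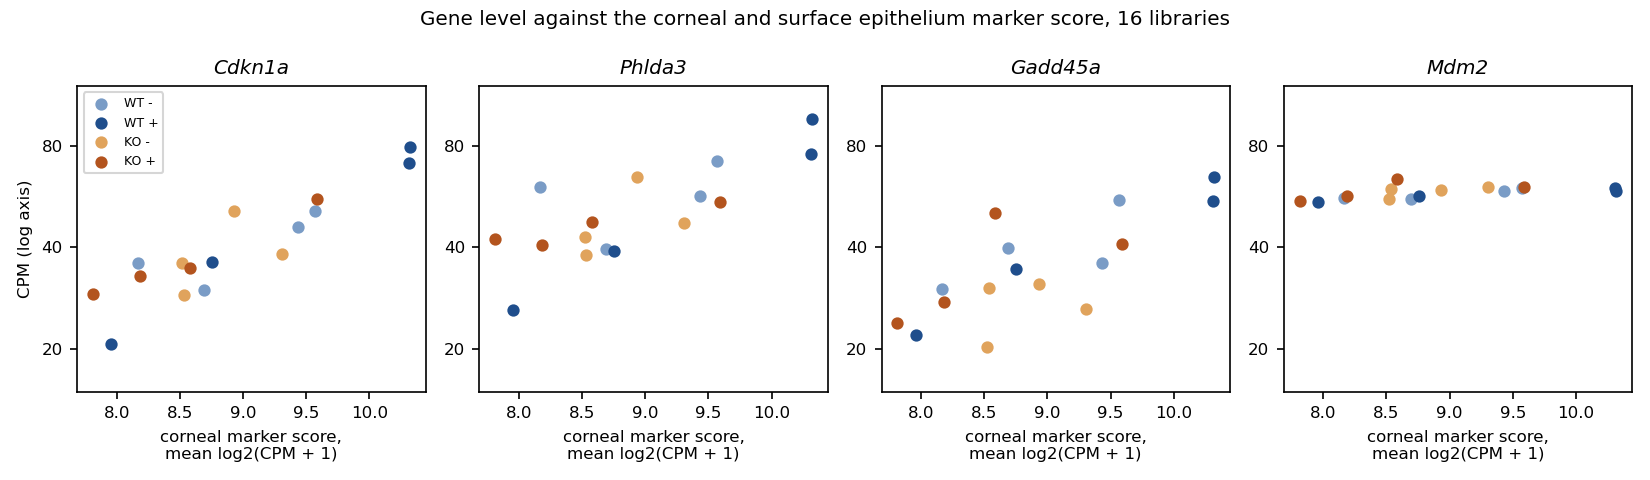
CPM of Cdkn1a, Phlda3, Gadd45a and Mdm2 (vertical log axis) against the mean log2(CPM + 1) of 10 corneal and surface epithelium markers (horizontal axis) in the 16 libraries, coloured by group. Hydroquinone wild-type libraries 1 and 2 lie at the right end of each panel, and Mdm2 stays between 54.7 and 63.8 CPM.

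For Cdkn1a, eyes of the same mouse showed the same order. In 3 of 3 mice with both eyes, the eye with the higher corneal score had the higher Cdkn1a level, at 51.4 against 35.9, 46.1 against 30.1 and 51.3 against 35.9 CPM. Phlda3, Mdm2 and Trp53 were also higher in that eye in 3 of 3 mice, Gadd45a and Bax in 2 of 3, Ccng1 and Gdf15 in 1 of 3 and Trp53inp1 in 0 of 3. All 3 mice were untreated. The share of all tested genes higher in that eye in 3 of 3 mice was not computed. In the knockout mouse the corneal scores were close, at 8.93 and 8.52. Its eye with the higher score was untreated knockout library 1, which had the fewest genes detected (17904).

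The summed level of the 10 corneal markers was 5604 to 16270 CPM in untreated wild type, 4737 to 30810 in hydroquinone wild type, 6877 to 12530 in untreated knockout and 4122 to 15080 CPM in hydroquinone knockout. No marker was at 0 in any library, and Krt12, the keratin that defines corneal epithelium, ran from 242 to 10340 CPM. Sfn and Perp of this list are also p53 targets, and Trp63 encodes a relative of p53. With the corneal score as a covariate, the log2 fold change of hydroquinone in wild type went from 0.35 to -0.056 for Cdkn1a (SE 0.35 without and 0.16 with the covariate). It went from 0.045 to -0.30 for Phlda3 and from 0.13 to -0.15 for Gadd45a, and none passed (edgeR adjusted p = 0.996 for each). With hydroquinone wild-type libraries 1 and 2 left out, these log2 fold changes were -0.52, -0.81 and -0.51 (edgeR adjusted p = 0.697, 0.691 and 0.702). Both of these fits were chosen after seeing the data. Libraries 1 and 2 were the highest of their group for each of these genes. Leaving them out could therefore only lower the values, and the fall carries no further information.

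Over the 16 libraries, the genes most like Cdkn1a by Spearman's rho were Tent5b (0.976), Hebp2 (0.976), F11r (0.971), Capg (0.971) and Ostf1 (0.968). Among 15379 genes Phlda3 ranked 438 in this order and Gadd45a 1526. All 5 leading genes also followed the corneal score, with r of 0.892 to 0.960 over the 16 libraries. They were picked for likeness to Cdkn1a, which followed that score, so these r are a description and not separate support.

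Other genes of the p53 pathway were read against the 0.0845% of all genes that passed for hydroquinone averaged over genotype. Among 15 p53 regulators and damage kinases (such as Mdm4, Atm and Chek2), edgeR called 0 averaged over genotype, 9 of 15 were above 0, and the median log2 fold change was 0.056. The 3 further lists of 15 p53 targets each gave 0 calls. Those for the cell cycle and feedback had a median of 0.023 (9 of 15 above 0), those for cell death 0.054 (12 of 15) and those for repair and metabolism 0.050 (11 of 15). Over all tested genes the median was 0.0046 and 51.2% were above 0. The cell cycle and feedback list depended on the libraries used. Without hydroquinone wild-type libraries 1 and 2, left out after seeing the data, 1 of 15 was above 0 (median -0.19). The list had 11 of 15 above 0 (median 0.16) in the libraries lacking a letter and 2 of 15 (median -0.21) in those carrying one. Named by a rule on unadjusted p, Tnfrsf1a, a death receptor, had a log2 fold change of 0.33 (SE 0.10), Casp6, a caspase, 0.28 (SE 0.10) and Ephx1, an epoxide hydrolase, 0.35 (SE 0.12). None of these 3 passed (edgeR adjusted p = 0.761, 0.823 and 0.775).

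The 16 tested genes that repair oxidised bases had a median of 0.014 with 9 above 0, and the 16 DNA break repair genes a median of 0.016 with 11 above 0. In each list edgeR called 0, against 0.0845% of all genes. In the latter list Rad52 (-0.29, SE 0.11), Fancd2 (0.45, SE 0.19) and Brca1 (-0.50, SE 0.21) had an unadjusted p below 0.05 without passing (edgeR adjusted p = 0.823, 0.864 and 0.864). Of 14 markers of dividing cells 0 passed, and 7 were above and 7 below 0. By genotype, 11 of 14 were above 0 in wild type (median 0.21), against 50% of all genes. In knockout 3 of 14 were (median -0.091), against 49.6%. Without hydroquinone wild-type libraries 1 and 2, left out after seeing the data, 0 of 14 were above 0 averaged over genotype (median -0.51). Averaged over genotype, all 12 cell cycle brakes and senescence genes other than Cdkn2a and Cdkn1a were above 0, against 51.2% of all genes. Their median was 0.082, against 0.0046 for all genes, and the highest value was 0.22. None passed, against 0.0845% of all genes. By genotype, 8 of 12 were above 0 in wild type and 9 of 12 in knockout. Across the alternatives between 7 and 12 of them were above 0 averaged over genotype. The list mixes brakes such as Cdkn2b and Cdkn1b with Lmnb1, whose level is known to fall in senescent cells, and Bmi1, a repressor of Cdkn2a.

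Among 13 tested genes secreted by senescent cells 0 passed averaged over genotype, against 0.0845% of all genes. Their median was 0.16, and 11 were above 0, against 51.2% of all genes. Ccl8, a chemokine made by macrophages, was at 1.89, 1.53, 0.453 and 1.13 CPM in untreated wild type and 5.95, 7.64, 2.31 and 9.11 CPM with hydroquinone. In knockout it was at 2.06, 2.00, 0.646 and 1.42 CPM untreated and 2.93, 3.05, 2.20 and 2.01 CPM with hydroquinone. Wild-type hydroquinone libraries were all above the untreated ones, whereas the knockout groups overlapped. In wild type the groups were apart, in either direction, for 2.91% of all genes. Averaged over genotype, its log2 fold change was 1.52 (SE 0.34, edgeR adjusted p = 0.277). DESeq2 called Ccl8 and no other gene of this list, against 39 of 15077 genes in all. The summed level of 8 macrophage markers was 1207 to 2280 CPM in untreated and 1822 to 3567 CPM in hydroquinone wild type, and 1050 to 2517 and 1888 to 2889 CPM in knockout. All of them were at 1 CPM or more in every library, and their part in the level of Ccl8 was not tested.

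In the same libraries, targets of NRF2 were higher with hydroquinone. NRF2 is the transcription factor that answers quinones and other electrophiles. Of 10 NRF2 targets all 10 were above 0 averaged over genotype, against 51.2% of all genes. Their median was 0.66, against 0.0046 for all genes, and 7 of 10 passed with edgeR, against 0.0845% of all genes. Osgin1 rose by 1.22 on the log2 scale (SE 0.11, adjusted p = 0.00013 by edgeR) and Gclc, an enzyme of glutathione synthesis, 0.73 (SE 0.083, adjusted p = 0.00080). The NRF2 list was chosen with earlier results of these libraries known and is not independent evidence of its direction. Of 10 ATF4 and CHOP genes, which answer protein and amino acid stress, 0 passed and the median was 0.019. Sesn2 is in this list and also among the p53 targets for the cell cycle and feedback. Atf3 (0.51, SE 0.19) and Trib3 (0.47, SE 0.21) did not pass (edgeR adjusted p = 0.823 and 0.868).

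**Figure D4:**
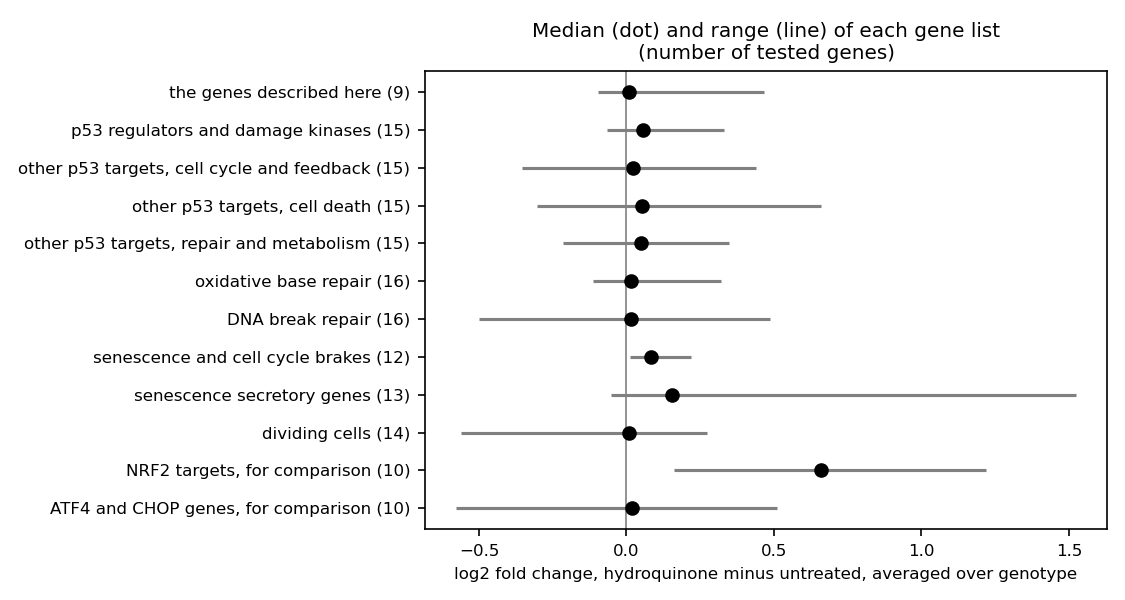
Median (dots) and range (lines) of the log2 fold change of hydroquinone against untreated, averaged over genotype (horizontal axis), for each gene list (vertical axis, number of tested genes in brackets). The NRF2 targets have a median of 0.66 and all lie above 0, while the medians of the other lists lie between 0.0076 and 0.16.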

How the data were processed

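The authors deposited 1 table of read counts (51912 genes, 16 libraries). Per the submitters' processing notes STAR, Cufflinks, DESeq2 and the build mm10 were used, with no role or version given. The table is labelled FPKM, but all of its values are whole numbers with totals of 21113549 to 35332444, so they were treated as deposited counts. Gene identifiers were matched to GENCODE M21 (GRCm38) for 51633 genes. CPM are counts scaled to 1e6, with each library's total over the tested genes multiplied by a TMM factor (0.9727 to 1.03). The filters on mean CPM, the limit set by 3 counts and the pooled Cdkn2a levels use totals without these factors. Each comparison was tested with edgeR 4.0.16 (quasi-likelihood test, TMM scaling, R 4.3.3) over 15380 genes (mean over libraries of 1 CPM or more), with Benjamini-Hochberg adjustment and a threshold of 0.05. DESeq2 1.42.0, limma 3.58.1 with the mouse as a block (consensus correlation -0.02), summed eyes, other scalings, filters and covariates, and leaving out libraries were alternatives. The fit was tested on simulated data. Eyes of 3 mice enter as separate libraries, so p-values in part measure spread within mice. Marker scores are means of log2(CPM + 1). All 10 genes are named, and of each other list up to 4 genes with the smallest unadjusted p below 0.05. A gene that this rule names is not reported here. The genes and lists were chosen with earlier results of these data known. The limit set by 3 counts was 0.085 to 0.142 CPM and covers counting error only. No 2 libraries of a group agreed within sampling noise (chi-square per degree of freedom of at least 23.7).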

Additional observations from a re-analysis of the deposited data

Results flagged for a closer look

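Bax in untreated knockout library 1 stood apart from the other 3 libraries of its group, at 18.8 CPM (393 counts) against 8.16 to 9.39 CPM. The gap to the nearest library was 0.836 of the range of the group, above Dixon's 95% critical value for 4 libraries. It was the only such value in 40 sets of 4 libraries searched, in which chance alone gives about 2. The library also had the fewest genes detected of all 16 (17904).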

How the results depend on the processing

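No gene of the 9 passed in any of 214 fits over 31 alternatives, and the smallest adjusted p was 0.149 (edgeR, Gdf15 in knockout, libraries with a letter). Directions near 0 were not stable, and the cause was not tested. Averaged over genotype, the log2 fold change of hydroquinone with one library left out ran from -0.0175 to 0.0189 for Mdm2, -0.0504 to 0.0792 for Trp53inp1, -0.1294 to 0.1345 for Bax and -0.1729 to 0.1167 for Phlda3. In libraries without a letter it was -0.0217 for Trp53, -0.0403 for Trp53inp1 and 0.0477 for Phlda3. In those with a letter it was -0.1208 for Cdkn1a, -0.0265 for Mdm2 and 0.0609 for Bax. With the identifier form as a covariate it was -0.0057 for Mdm2 and -0.0003 for Trp53inp1, and with eyes summed -0.0281 for Trp53inp1, 0.0337 for Bax and 0.039 for Phlda3. A minimum of 5 CPM gave 0.0026 for Phlda3 and left out Gdf15. The following were chosen after seeing the data. The corneal score as a covariate gave -0.0005 for Mdm2. Without hydroquinone wild-type libraries 1 and 2 it was -0.2709 for Cdkn1a, -0.0201 for Mdm2 and -0.0528 for Gadd45a. Without the 2 libraries with the fewest genes it was -0.0182 for Mdm2, -0.0095 for Trp53inp1 and 0.0451 for Bax. Without the 2 knockout libraries with the highest rod score it was -0.0078 for Trp53inp1. Between 0 and 8 of the 10 NRF2 targets passed, with 0 in the libraries of either identifier form alone. No paired analysis between groups was possible because each mouse belonged to a single group.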
